A study of Mus musculus with 16 samples.

Results

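The genes described here are the activin and inhibin subunits Inhba, Inhbb and Inha, the activin antagonists Fst and Fstl3, and the activin receptors Acvr1b, Acvr2a and Acvr2b. They were taken by gene symbol and make up 8 of the 30385 gene entries of the series. All 8 passed the filter on low counts, which left 16835 entries for testing. RNA sequencing was carried out on immortalized mouse epicardial cells of 2 lines, isolated at E11.5 from embryos of mixed C57BL/6 and SV129 background that also carry the Immorto transgene. The mt line is Tgfbr3-/- and the wt line is Tgfbr3+/+. Cells of each line were given TGFB1 at 250 pM, TGFB2 at 250 pM, BMP2 at 5 nM or vehicle (VEH) for 72 h, with 2 libraries in each of the 8 groups. There is 1 line per genotype, so that genotype and clone cannot be told apart. The labels do not say whether the libraries of a group came from separate cultures, so p-values measure the spread between these libraries, which may be technical.

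Activins are dimers of beta subunits: 2 Inhba chains form activin A, and Inhbb chains form activin B. The alpha subunit encoded by Inha pairs with a beta subunit to form an inhibin, which opposes activin. Activin binds a type II receptor, ACVR2A or ACVR2B, which then activates the type I receptor ACVR1B, and the signal runs through SMAD2 and SMAD3, the same SMADs that TGF-beta uses. Follistatin (Fst) and follistatin-like 3 (Fstl3) bind activins outside the cell and keep them from their receptors. Betaglycan, the product of Tgfbr3, is a co-receptor for inhibin as well as for TGF-beta, and TGFB2 relies on it more than TGFB1 does.

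The promoter windows of Inhba, Fstl3 and Acvr1b are given below, because those 3 genes changed with both TGF-beta ligands in both lines. Each window runs from 250 bases before to 50 bases after the annotated start in RefSeq (GRCm38.p6) and is written 5′ to 3′ on the gene's own strand, which is the plus strand for all 3. The Inhba window is chr13:16011601-16011900, the Fstl3 window is chr10:79777024-79777323, and the Acvr1b window is chr15:101173822-101174121. Capitals mark CAGAC, the core of the SMAD binding element, or its reverse complement GTCTG.
Inhba: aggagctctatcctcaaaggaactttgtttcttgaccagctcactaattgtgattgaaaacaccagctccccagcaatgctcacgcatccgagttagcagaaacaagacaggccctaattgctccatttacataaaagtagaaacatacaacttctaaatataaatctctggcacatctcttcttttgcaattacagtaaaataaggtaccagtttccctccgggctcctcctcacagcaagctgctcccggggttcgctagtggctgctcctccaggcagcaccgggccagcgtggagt
Fstl3: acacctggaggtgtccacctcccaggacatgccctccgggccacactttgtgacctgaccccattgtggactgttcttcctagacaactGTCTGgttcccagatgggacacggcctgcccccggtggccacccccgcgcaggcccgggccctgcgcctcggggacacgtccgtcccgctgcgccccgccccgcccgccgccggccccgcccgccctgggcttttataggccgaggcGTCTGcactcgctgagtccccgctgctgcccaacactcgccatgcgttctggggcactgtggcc
Acvr1b: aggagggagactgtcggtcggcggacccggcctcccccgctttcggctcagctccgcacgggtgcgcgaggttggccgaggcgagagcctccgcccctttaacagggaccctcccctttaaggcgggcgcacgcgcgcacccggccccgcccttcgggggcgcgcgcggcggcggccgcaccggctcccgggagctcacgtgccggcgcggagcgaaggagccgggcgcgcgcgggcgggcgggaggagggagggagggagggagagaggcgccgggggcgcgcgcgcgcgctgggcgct
The Fstl3 window held 2 matches, both on the minus strand, at positions -161 and -14 from the start, while the Inhba and Acvr1b windows held 0. A window was found for 7 of the 8 genes, all but Fst; Inha, Acvr2a and Acvr2b had 1 match each and Inhbb had 0. CAGAC, on either strand, stands in 49.6% of all 32851 windows of this length. TGANTCA, the core that AP-1 factors bind, stands in 7.8% of them and was in none of those 7 windows. Both motifs were searched on both strands. A match or its absence describes the letters of the window only.

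Library totals ran from 6410320 to 31813921 reads, with the lowest for replicate 1 of the BMP2 groups. Tgfbr3, the targeted gene, was at 9.73 to 18.2 counts per 1e+06 reads (CPM) in mt libraries, against 32.5 to 100.3 CPM in wt libraries, and was lower in mt cells with vehicle (log2 fold change -2.39 ± 0.32 SE, adjusted p = 0.00191, and -2.24, adjusted p = 0.0779, without the 4 mt replicate 1 libraries described below). Within wt cells Tgfbr3 was at 32.5 to 57.7 CPM with TGFB1 or TGFB2, against 71.0 and 100.3 CPM with vehicle. The wt log2 fold change of Tgfbr3 was -0.89 ± 0.30 with TGFB1 (adjusted p = 0.059) and -1.04 ± 0.30 with TGFB2 (adjusted p = 0.0308). The mt libraries still held 70 to 348 reads of Tgfbr3, and the labels do not give which part of the gene is deleted. All 12 epicardial markers had reads in every library. Their summed level was 850.4 to 1594 CPM in the libraries with TGFB1 or TGFB2, against 3702 to 4258 CPM in those with BMP2 or vehicle. Upk3b (112.2 to 1696 CPM), Lrrn4 (27.6 to 1183 CPM) and Msln (334.6 to 1142 CPM) reached the highest levels among them, while Gata5 was at 0.07 to 18.1 CPM. The sum thus leans on the abundant genes and does not show how each of the 12 moved. In such bulk samples, fewer cells of a type and less RNA per cell cannot be told apart. Markers of other cell types moved with TGF-beta as well. The 12 cardiomyocyte markers summed to 181.5 to 258.2 CPM in mt cells with TGFB1 or TGFB2, against 62.7 to 121 CPM with vehicle, and to 660.3 to 915.3 CPM in wt cells with TGFB1 or TGFB2, against 153.2 to 249.3 CPM with vehicle. Most of that was Tnnt2, at 50.7 to 906.5 CPM over all libraries. In wt cells the other 11 summed to 7.76 to 14.67 CPM with TGFB1 or TGFB2, against 24.2 and 14.53 CPM with vehicle. In mt replicate 2 they summed to 6.49 CPM with TGFB1 and 5.38 CPM with TGFB2, against 12.05 CPM with vehicle. In mt replicate 1 they summed to 90.8 and 77.4 CPM, against 53.7 CPM with vehicle. Over all 4 treatments, these 11 summed to 53.7 to 90.8 CPM in the 4 mt replicate 1 libraries. They summed to 5.38 to 23.1 CPM in the mt replicate 2 libraries and 7.76 to 24.2 CPM in wt libraries. The 4 mt replicate 1 libraries stand apart in this respect, and the log2 fold changes of mt cells against vehicle or against wt cells are also given without them. Haematopoietic markers summed to 38.0 to 44.9 CPM in mt cells with TGFB1 or TGFB2, against 20.7 to 28.5 CPM with vehicle, and to 32.1 to 53.6 CPM in wt cells with TGFB1 or TGFB2, against 13.9 to 14.1 CPM with vehicle. Cd68 (8.33 to 34.9 CPM), Cd14 (1.96 to 15.3 CPM) and Hba-a2 (0 to 14.6 CPM) had high levels among them, while Ptprc was at 0 to 0.22 CPM. Endothelial markers summed to 22.7 to 33.8 CPM in mt cells with TGFB1 or TGFB2, against 33.8 to 36.2 CPM with vehicle, and to 26.1 to 31.6 CPM in wt cells with TGFB1 or TGFB2, against 48.0 to 52.3 CPM with vehicle. Kdr (13.75 to 62.3 CPM) and Tek (0.917 to 24.2 CPM) were among the higher of them, while Pecam1 was at 0 to 0.71 CPM. With BMP2 the sums of these other cell types lay above both vehicle libraries of their line, except cardiomyocyte markers in wt cells. For endothelial markers this differs from TGFB1 and TGFB2, with which no sum lay above a vehicle library of its line. Haematopoietic markers were then at 38.5 and 34.2 CPM in mt cells and 22.7 and 19.0 CPM in wt cells. Endothelial markers were at 49.9 and 38.5 CPM in mt cells and 89.7 and 53.7 CPM in wt cells. Cardiomyocyte markers were at 191.3 and 123.1 CPM in mt cells and 190.9 and 386.4 CPM in wt cells. The part that these markers have in the results below was not tested.

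With TGF-beta, these genes moved in both directions in both lines. In mt cells Inhba and Fstl3 rose and Acvr1b fell with either ligand, and Inha and Acvr2b fell with TGFB2. In wt cells Inhba and Fstl3 rose and Inha and Acvr1b fell with either ligand, and Acvr2b fell with TGFB2. A gene is said to have changed when the quasi-likelihood test of edgeR gave it a Benjamini-Hochberg adjusted p below 0.05, with the 16835 genes as the family. Thus in mt cells 3 of the 8 genes changed with TGFB1 (2 up, 1 down) and 5 with TGFB2 (2 up, 3 down). Of all genes tested in mt cells, 16.4% changed with TGFB1 (7.97% up, 8.45% down) and 17.4% with TGFB2 (8.17% up, 9.25% down). In wt cells 4 of the 8 changed with TGFB1 (2 up, 2 down) and 5 with TGFB2 (2 up, 3 down), against 19% of all genes with TGFB1 (10.8% up, 8.21% down) and 20.1% with TGFB2 (11.1% up, 9.03% down). The median absolute log2 fold change of the 8 genes was 1.06 with TGFB1 and 1.21 with TGFB2 in mt cells, where that of all genes was 0.46 and 0.48. In wt cells it was 1.05 with TGFB1 and 1.36 with TGFB2, where that of all genes was 0.44 and 0.46.

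**Figure D1:**
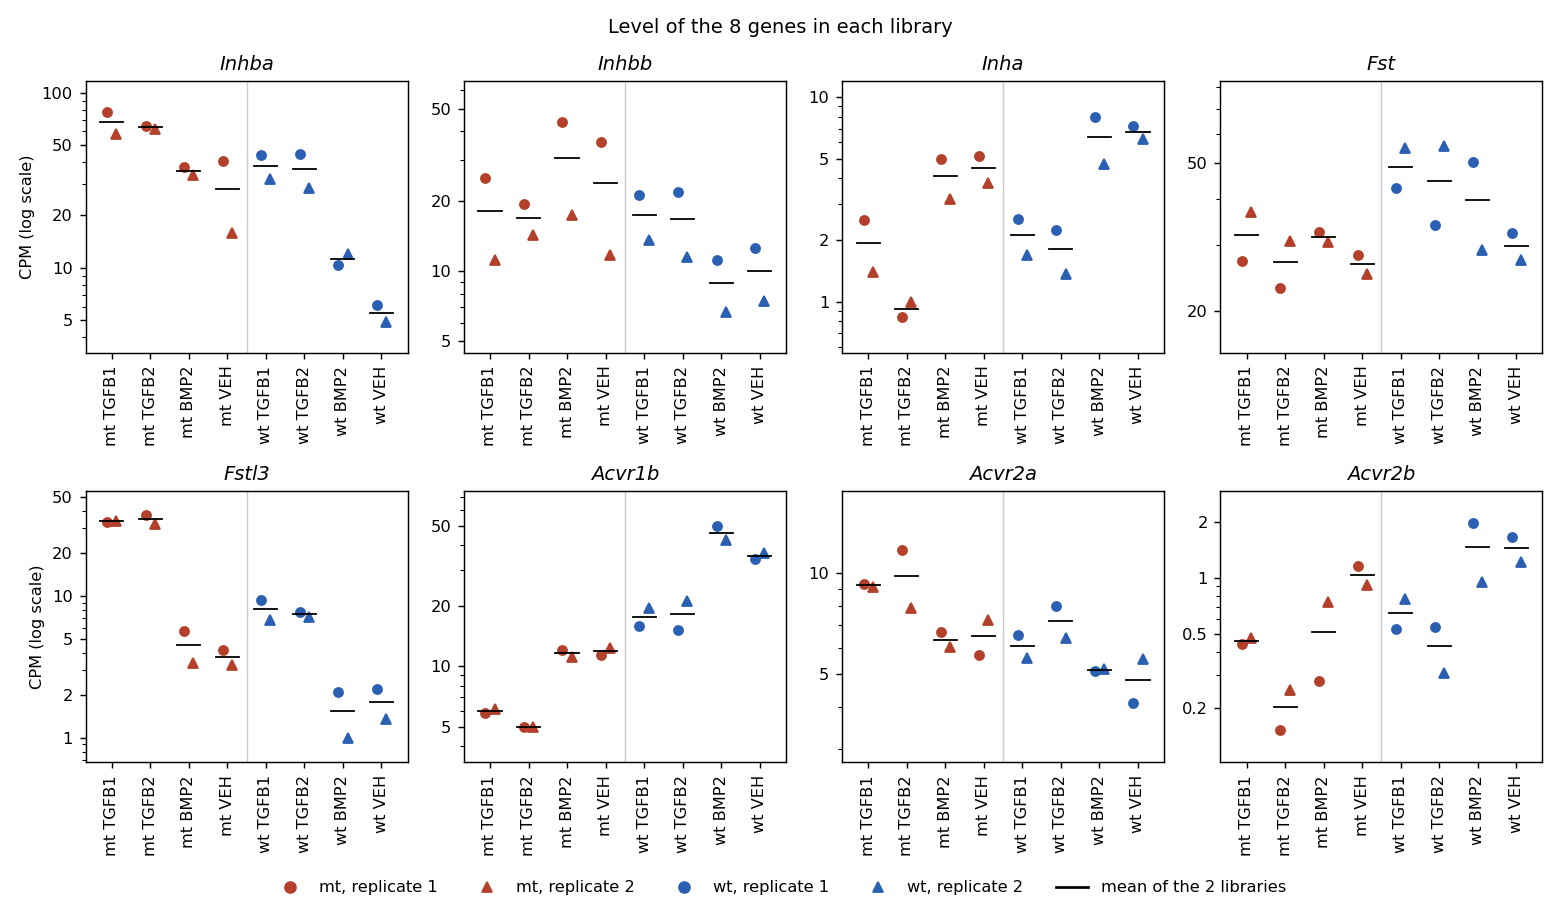
Level of each of the 8 genes in each library, in TMM-scaled CPM on a log axis that differs between panels. Circles are replicate 1 and triangles replicate 2, with mt cells in red on the left and wt cells in blue on the right, and bars are the mean of the 2 libraries of a group. Fstl3 sits between 32.4 and 37.0 CPM in the mt libraries with TGFB1 or TGFB2, and at 9.43 CPM or below in every other library.

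Inhba, the subunit of activin A, lies on the plus strand of chromosome 13 from 16106283 to 16119044 (build mm9, as deposited). The entries AK045681 and AK078363 overlap it by 8974 bases on the opposite strand, and had 0 to 4 and 0 to 2 reads in a library, against 69 to 1744 reads of Inhba. In mt cells it was at 77.6 and 58.3 CPM with TGFB1 and 64.9 and 62.2 CPM with TGFB2, against 40.7 and 15.9 CPM with vehicle (replicates 1 and 2). In wt cells it was at 44.1 and 31.9 CPM with TGFB1 and 44.3 and 28.7 CPM with TGFB2, against 6.11 and 4.89 CPM with vehicle. Every library with a TGF-beta lay above both vehicle libraries of its own line, and the mt vehicle library of replicate 1 lay within the range of the wt libraries with TGF-beta. In mt cells the log2 fold change was 1.27 ± 0.37 with TGFB1 (2.41-fold, adjusted p = 0.0378) and 1.17 ± 0.37 with TGFB2 (2.25-fold, adjusted p = 0.0498). The wt log2 fold change was 2.79 ± 0.40 with TGFB1 (6.91-fold, adjusted p = 0.000638) and 2.73 ± 0.40 with TGFB2 (6.63-fold, adjusted p = 0.000647). The wt calls held when any 1 of the 4 libraries was left out. The mt calls were lost without any 1 of 3 of their 4 libraries. Without mt VEH replicate 2 the mt log2 fold change was 0.74 with TGFB1 (adjusted p = 0.165) and 0.64 with TGFB2 (adjusted p = 0.211), while without mt VEH replicate 1 it was 2.09 and 1.99 (adjusted p = 0.00231 and 0.00273). Without the 4 mt replicate 1 libraries it was 1.87 with TGFB1 (adjusted p = 0.0252) and 1.97 with TGFB2 (adjusted p = 0.0207). Without mt TGFB1 replicate 1 or 2 the TGFB1 value was 1.05 or 1.43 (adjusted p = 0.159 or 0.0744), and without mt TGFB2 replicate 1 or 2 the TGFB2 value was 1.14 or 1.20 (adjusted p = 0.159 or 0.154). Over the 8 groups Inhba was highest in mt cells with TGFB1 and lowest in wt cells with vehicle. Neighbours in that order that did not overlap in their libraries were mt TGFB2 over wt TGFB1, mt VEH over wt BMP2, and wt BMP2 over wt VEH.

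Inhbb, the subunit of activin B, lies on the minus strand of chromosome 1 from 121312041 to 121318825. The mt libraries were at 25.2 and 11.1 CPM with TGFB1 and 19.4 and 14.3 CPM with TGFB2, against 36.0 and 11.7 CPM with vehicle. The wt libraries were at 21.2 and 13.6 CPM with TGFB1 and 22.0 and 11.5 CPM with TGFB2, against 12.6 and 7.46 CPM with vehicle. The mt libraries with a TGF-beta overlapped those with vehicle, while the wt libraries with TGFB1 lay above both vehicle libraries and those with TGFB2 overlapped them. Replicate 1 was the higher library in 8 of 8 groups, by 1.35 to 3.07 times, and no other of the 8 genes had its replicates in the same order in every group. With TGFB1 the log2 fold change was -0.39 ± 0.60 in mt cells (adjusted p = 0.732) and 0.79 ± 0.61 in wt cells (adjusted p = 0.444). With TGFB2 it was -0.50 ± 0.60 in mt cells (adjusted p = 0.641) and 0.74 ± 0.61 in wt cells (adjusted p = 0.474). Without mt replicate 1 libraries the mt values were -0.08 with TGFB1 (adjusted p = 0.967) and 0.29 with TGFB2 (adjusted p = 0.845). In the test that takes the replicate number as a block, the wt rises passed, with an adjusted p of 0.0196 with TGFB1 and 0.0367 with TGFB2. The mt values did not pass under the block (adjusted p = 0.323 with TGFB1 and 0.341 with TGFB2). Under the block 32.5% of all genes were called with TGFB1 and 33.5% with TGFB2 in mt cells, and 33.4% with TGFB1 and 34.7% with TGFB2 in wt cells.

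Inha, the inhibin alpha subunit, lies on the plus strand of chromosome 1 from 75503651 to 75506929. Its level in mt cells was 2.50 and 1.39 CPM with TGFB1 and 0.842 and 0.999 CPM with TGFB2, against 5.13 and 3.82 CPM with vehicle. Its level in wt cells was 2.53 and 1.69 CPM with TGFB1 and 2.25 and 1.37 CPM with TGFB2, against 7.24 and 6.21 CPM with vehicle. Each library with a TGF-beta lay below both vehicle libraries of its line, and the mt libraries with TGFB2 were the lowest of all 16, with 11 and 28 reads. In mt cells the log2 fold change was -1.22 ± 0.42 with TGFB1 (adjusted p = 0.0669, and 0.00386 under the replicate block) and -2.25 ± 0.44 with TGFB2 (4.76-fold lower, adjusted p = 0.00447). DESeq2 also called the mt fall with TGFB1, close to the threshold (-1.21, adjusted p = 0.047). The change in wt cells was -1.68 ± 0.41 with TGFB1 (3.21-fold lower, adjusted p = 0.0129) and -1.90 ± 0.41 with TGFB2 (3.74-fold lower, adjusted p = 0.00694). With the 4 mt replicate 1 libraries left out, the mt log2 fold change was -1.45 with TGFB1 (adjusted p = 0.163) and -1.93 with TGFB2 (adjusted p = 0.0759). The wt call with TGFB1 was lost without wt TGFB1 replicate 2 (-1.41, adjusted p = 0.122) or wt VEH replicate 1 (-1.57, adjusted p = 0.0654), and that with TGFB2 without wt TGFB2 replicate 2 (-1.58, adjusted p = 0.079).

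Fst, the gene for follistatin, lies on the minus strand of chromosome 13 from 115242469 to 115248938. It was at 23.1 to 55.4 CPM over all 16 libraries, and its ratio of highest to lowest, 2.40, was the smallest of the 8 genes. The mt values were 27.2 and 37.0 CPM with TGFB1 and 23.1 and 30.9 CPM with TGFB2, against 28.3 and 25.2 CPM with vehicle, and the TGF-beta libraries overlapped the vehicle libraries. The wt values were 42.9 and 54.9 CPM with TGFB1 and 34.1 and 55.4 CPM with TGFB2, against 32.5 and 27.4 CPM with vehicle, with no overlap. The log2 fold change with TGFB1 was 0.26 ± 0.31 in mt cells (adjusted p = 0.631, 95% interval -0.40 to 0.93) and 0.71 ± 0.31 in wt cells (adjusted p = 0.137, 95% interval 0.04 to 1.37). With TGFB2 it was 0.02 ± 0.31 in mt cells (adjusted p = 0.98, 95% interval -0.65 to 0.69) and 0.58 ± 0.31 in wt cells (adjusted p = 0.226, 95% interval -0.09 to 1.25). The mt values without replicate 1 libraries were 0.55 with TGFB1 (adjusted p = 0.556) and 0.30 with TGFB2 (adjusted p = 0.784).

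Fstl3, whose product binds activins as follistatin does, lies on the plus strand of chromosome 10 from 79240018 to 79245375. It had the largest log2 fold change of the 8 genes in mt cells. In mt cells it was at 33.4 and 34.1 CPM with TGFB1 and 37.0 and 32.4 CPM with TGFB2, against 4.14 and 3.28 CPM with vehicle. In wt cells it was at 9.43 and 6.78 CPM with TGFB1 and 7.71 and 7.16 CPM with TGFB2, against 2.20 and 1.35 CPM with vehicle. The 4 mt libraries with a TGF-beta lay above all 12 others, and all wt libraries with a TGF-beta lay above all 4 mt libraries with BMP2 or vehicle. In mt cells the log2 fold change was 3.19 ± 0.36 with TGFB1 (9.13-fold, adjusted p = 0.000195) and 3.23 ± 0.36 with TGFB2 (9.38-fold, adjusted p = 0.00016). The wt cells gave a log2 fold change of 2.19 ± 0.36 with TGFB1 (4.56-fold, adjusted p = 0.0014) and 2.07 ± 0.36 with TGFB2 (4.20-fold, adjusted p = 0.00177). All 4 calls held when any 1 library was left out. Leaving out the 4 mt replicate 1 libraries, the mt log2 fold change was 3.37 with TGFB1 (adjusted p = 0.00842) and 3.30 with TGFB2 (adjusted p = 0.00872).

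The deposited tables hold a second entry at this locus on the same strand, FLRG, an older name of Fstl3, which shares 2051 bases with it. Another entry, Prssl1, overlaps it by 1158 bases on the opposite strand. Reads of FLRG were 0.676 to 1.02 times those of Fstl3 over the 16 libraries, and reads of Prssl1 were 0.357 to 0.8 times. Prssl1 rose with TGFB1 as well, with a log2 fold change of 3.07 ± 0.41 in mt cells and 2.32 ± 0.41 in wt cells (adjusted p = 0.000485 and 0.00216), and of 3.51 in mt cells without the replicate 1 libraries (adjusted p = 0.00683). The sources used here do not say whether the counting used strand, so that reads of Fstl3 and of its antisense partner cannot be told apart.

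Acvr1b, the type I receptor ALK4, lies on the plus strand of chromosome 15 from 101004555 to 101043032. The mt libraries were at 5.88 and 6.12 CPM with TGFB1 and 4.97 and 4.99 CPM with TGFB2, against 11.3 and 12.4 CPM with vehicle. The wt libraries were at 15.8 and 19.5 CPM with TGFB1 and 15.1 and 21.2 CPM with TGFB2, against 34.2 and 36.6 CPM with vehicle. Every mt library lay below every wt library, and within each line the TGF-beta libraries lay below the vehicle libraries. In mt cells the log2 fold change was -0.98 ± 0.22 with TGFB1 (1.97-fold lower, adjusted p = 0.0088) and -1.25 ± 0.22 with TGFB2 (2.38-fold lower, adjusted p = 0.00222). The wt log2 fold change was -1.0 ± 0.21 with TGFB1 (2.00-fold lower, adjusted p = 0.00538) and -0.96 ± 0.21 with TGFB2 (1.95-fold lower, adjusted p = 0.00651). Without the 4 mt replicate 1 libraries the mt values were -1.02 with TGFB1 (adjusted p = 0.115) and -1.31 with TGFB2 (adjusted p = 0.0528). The mt call with TGFB1 was lost without mt TGFB1 replicate 2 (-1.05, adjusted p = 0.0518) or mt VEH replicate 2 (-0.92, adjusted p = 0.0506). The wt calls were lost without wt TGFB1 replicate 1 (adjusted p = 0.0559) and without wt TGFB2 replicate 1 (adjusted p = 0.0817), with log2 fold changes of -0.91 and -0.75.

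Acvr2a and Acvr2b encode the type II receptors that bind activin directly. Acvr2a lies on the plus strand of chromosome 2 from 48669628 to 48758784. Its level in mt cells was 9.33 and 9.09 CPM with TGFB1 and 11.8 and 7.88 CPM with TGFB2, against 5.71 and 7.26 CPM with vehicle. Its level in wt cells was 6.54 and 5.58 CPM with TGFB1 and 8.01 and 6.40 CPM with TGFB2, against 4.09 and 5.55 CPM with vehicle. The groups did not overlap in either line, but the lower wt TGFB1 library (5.58 CPM) was close to the higher wt vehicle library (5.55 CPM). How often groups of 2 libraries fail to overlap among all genes was not counted. The values did not pass the test. With TGFB1 the log2 fold change was 0.50 ± 0.27 in mt cells (adjusted p = 0.244) and 0.32 ± 0.27 in wt cells (adjusted p = 0.487). With TGFB2 it was 0.59 ± 0.27 in mt cells (adjusted p = 0.166) and 0.58 ± 0.27 in wt cells (adjusted p = 0.168). Without mt replicate 1 libraries the mt values were 0.32 with TGFB1 (adjusted p = 0.701) and 0.12 with TGFB2 (adjusted p = 0.91). The last 512 bases of the Acvr2a entry overlap Orc4, a subunit gene of the origin recognition complex, on the opposite strand. Orc4 rose in mt cells, by 1.32 ± 0.34 on the log2 scale with TGFB1 (adjusted p = 0.0192) and 1.45 ± 0.34 with TGFB2 (adjusted p = 0.0116), and its part in the Acvr2a reads was not tested. Neither Orc4 call held without the 4 mt replicate 1 libraries (1.31, adjusted p = 0.108, with TGFB1 and 1.04, adjusted p = 0.193, with TGFB2).

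Acvr2b, on the plus strand of chromosome 9 from 119311618 to 119342624, had the lowest read numbers, with 2 to 37 reads in a library. The mt values were 0.441 and 0.477 CPM with TGFB1 and 0.153 and 0.250 CPM with TGFB2, against 1.16 and 0.915 CPM with vehicle. The wt values were 0.530 and 0.770 CPM with TGFB1 and 0.546 and 0.309 CPM with TGFB2, against 1.66 and 1.21 CPM with vehicle. All TGF-beta libraries lay below the vehicle libraries of their line. With TGFB1 the log2 fold change was -1.14 ± 0.53 in mt cells (adjusted p = 0.175) and -1.11 ± 0.48 in wt cells (adjusted p = 0.139). With TGFB2 it was -2.24 ± 0.58 in mt cells (4.71-fold lower, adjusted p = 0.0199) and -1.76 ± 0.52 in wt cells (3.39-fold lower, adjusted p = 0.0307). Both calls were lost whichever of their 4 libraries was left out, with values of -2.70 to -2.02 in mt cells (adjusted p from 0.0503 to 0.112) and of -2.19 to -1.39 in wt cells (adjusted p from 0.0664 to 0.227). With the 4 mt replicate 1 libraries left out, the mt value was -0.93 with TGFB1 (adjusted p = 0.536) and -1.85 with TGFB2 (adjusted p = 0.214).

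**Figure D2:**
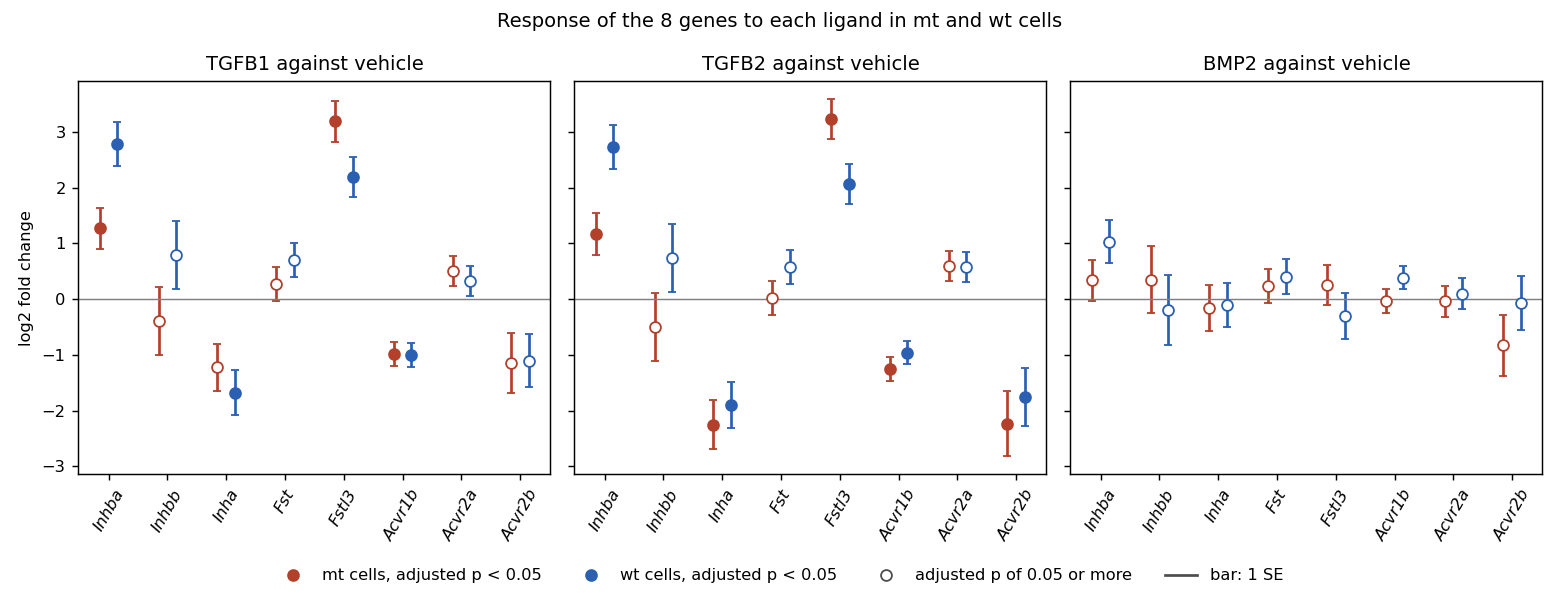
Log2 fold change of each gene against vehicle of the same line for TGFB1, TGFB2 and BMP2, with mt cells in red left of wt cells in blue. Bars are 1 SE, n = 2 libraries per group, and filled points have an adjusted p below 0.05. Inhba, Fstl3 and Acvr1b are filled in both lines with both TGF-beta ligands, and no point is filled with BMP2.

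BMP2 signals through other SMADs than activin and TGF-beta do. None of the 8 genes changed with it in edgeR's test (0 of 8 in mt cells and 0 of 8 in wt cells), against 0.0416% of all genes in mt cells and 0% in wt cells. At an unadjusted p below 0.05 there were 0 of the 8 in mt cells and 1 in wt cells, and DESeq2 called 0 in either line. That 1 gene was Inhba, at 10.4 and 12.02 CPM in wt cells with BMP2 against 6.11 and 4.89 CPM with vehicle, a log2 fold change of 1.03 ± 0.39 (adjusted p = 0.915). In mt cells Inhba was at 37.4 and 34.0 CPM with BMP2, against 40.7 and 15.9 CPM with vehicle (0.34 ± 0.37, adjusted p = 1, and 1.10, adjusted p = 1, without the mt replicate 1 libraries). Acvr1b in wt cells was at 49.99 and 42.5 CPM with BMP2, against 34.2 and 36.6 CPM with vehicle (0.38 ± 0.21, adjusted p = 0.915). In mt cells it was at 12.1 and 11.2 CPM with BMP2, against 11.3 and 12.4 CPM with vehicle. Fstl3 was at 5.70 and 3.40 CPM in mt cells with BMP2 and at 2.11 and 1.01 CPM in wt cells with BMP2, and each pair overlapped its vehicle libraries. Without the mt replicate 1 libraries the mt values with BMP2 were -0.15 for Acvr1b and 0.05 for Fstl3 (adjusted p = 1 for both). The BMP2 dose differs from that of the TGF-betas, and the BMP2 libraries of replicate 1 are the shallowest.

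The lines differed in these genes with vehicle and over all treatments. With vehicle, Inhba rose and Acvr1b fell in mt cells relative to wt cells, which makes 2 of 8 genes (1 up, 1 down), against 3.58% of all genes (2.45% up, 1.13% down). The mt vehicle library of replicate 1, which had 40.7 CPM of Inhba, held 53.7 CPM of the 11 cardiomyocyte markers, against 12.1 CPM in replicate 2, and their part in the difference was not tested. Inhba averaged 28.3 ± 17.6 CPM in mt cells and 5.50 ± 0.86 CPM in wt cells (SD, n = 2 each), a log2 fold change of 2.36 ± 0.39 (5.13-fold, adjusted p = 0.00708). Acvr1b averaged 11.9 ± 0.74 CPM in mt cells and 35.4 ± 1.66 CPM in wt cells, a log2 fold change of -1.58 ± 0.21 (2.98-fold lower, adjusted p = 0.00195). Neither call held without the 4 mt replicate 1 libraries, where Inhba went from 2.36 to 1.53 and Acvr1b from -1.58 to -1.52. That fit has 1 mt vehicle library and fewer degrees of freedom. Leaving out 1 library at a time, Acvr1b stayed between -1.65 and -1.52. The Inhba call was also lost without wt VEH replicate 1 (2.52, adjusted p = 0.0522) or wt VEH replicate 2 (2.20, adjusted p = 0.111). Under the replicate block 4 of the 8 genes were called, against 10.3% of all genes. The other two were Inhbb, with a log2 fold change of 1.12 (adjusted p = 0.00969, against 0.404 without the block), and Fstl3, with 1.08 (adjusted p = 0.0184, against 0.162). Without the block and the 4 mt replicate 1 libraries, Inhbb was at 0.23 (adjusted p = 0.941, against 1.25 with them) and Fstl3 at 0.89 (adjusted p = 0.644). The mt vehicle libraries were at 36.0 and 11.7 CPM of Inhbb, and without mt VEH replicate 1 alone the Inhbb value was likewise 0.23.

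Averaged over the 4 treatments, 4 of the 8 genes differed between the lines (3 higher and 1 lower in mt cells), against 18% of all genes (9.83% higher, 8.17% lower). Fstl3 was higher in mt cells by 1.74 ± 0.18 on the log2 scale (3.35-fold, adjusted p = 5.66e-05) and Inhba by 1.41 ± 0.19 (2.67-fold, adjusted p = 0.000357). Acvr1b was lower in mt cells (-1.75 ± 0.11, 3.36-fold, adjusted p = 9.7e-07). Leaving out the 4 mt replicate 1 libraries, these 3 were at 1.59 (adjusted p = 0.00309), 1.13 (adjusted p = 0.00411) and -1.74 (adjusted p = 0.000501). Acvr2a was higher in mt cells by 0.44 ± 0.14 (adjusted p = 0.0412), a call that was lost without those libraries (0.38, adjusted p = 0.139) and without the filter on low counts (0.43, adjusted p = 0.111), and that held in 3 of the 16 cases that leave out 1 library. Under the replicate block all 8 genes were called, against 34.1% of all genes. The added ones were Inha (-0.56, adjusted p = 0.00827), Inhbb (0.72, adjusted p = 0.000543), Fst (-0.46, adjusted p = 0.0207) and Acvr2b (-0.75, adjusted p = 0.0438). Without the block they had an adjusted p of 0.0784, 0.103, 0.0596 and 0.0632, in the same order. Fst also passed in DESeq2 (-0.46, adjusted p = 0.0321) and in edgeR without the filter on low counts (-0.47, adjusted p = 0.0354). Without the 4 mt replicate 1 libraries and without the block, Inha was at -0.80 (adjusted p = 0.0622), Inhbb at 0.10 (adjusted p = 0.822), Fst at -0.39 (adjusted p = 0.213) and Acvr2b at -0.68 (adjusted p = 0.195).

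**Figure D3:**
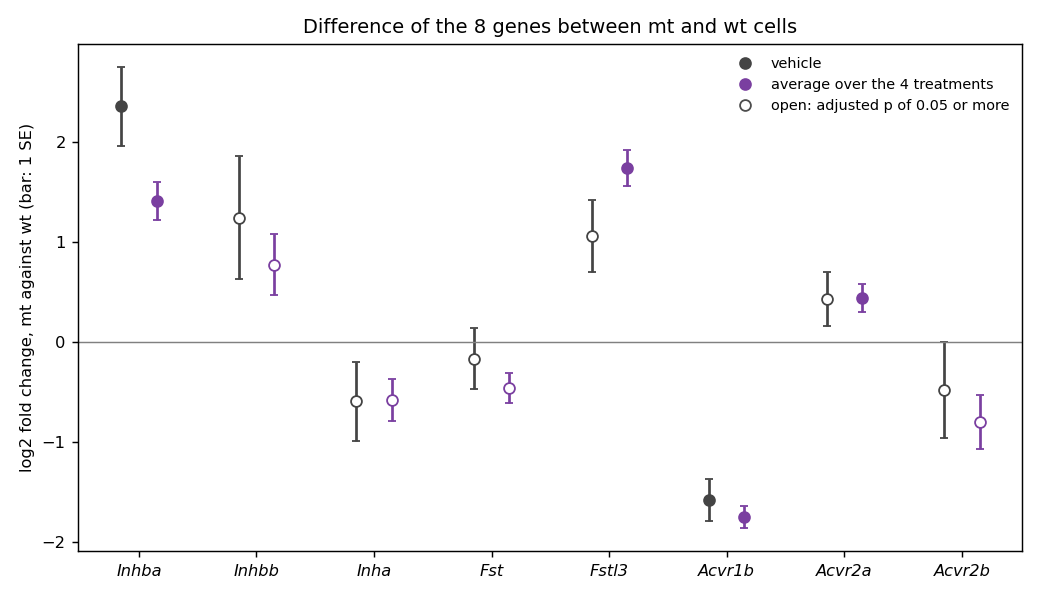
Log2 fold change of each gene in mt against wt cells, with vehicle (grey) and averaged over the 4 treatments (purple). Bars are 1 SE and filled points have an adjusted p below 0.05. Inhba lies above 0 and Acvr1b below 0 with both measures, while Fstl3 is filled only for the average.

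The response to TGF-beta was then compared between the lines directly. For the mean of the TGFB1 and TGFB2 effects, the difference (mt minus wt) was -1.54 ± 0.46 for Inhba and 1.08 ± 0.43 for Fstl3 on the log2 scale. Neither passed the adjusted threshold in edgeR's test (adjusted p = 0.262 for Inhba and 0.51 for Fstl3). None of the 8 genes was called (0 of 8, with 2 at an unadjusted p below 0.05 and 0 called by DESeq2), against 0.184% of all genes. Under the replicate block Inhba was the 1 gene called (-1.45, adjusted p = 0.0366), against 2.41% of all genes. Without mt VEH replicate 2 the Inhba difference was -2.06 (adjusted p = 0.028), and without the 4 mt replicate 1 libraries it was -0.83 (adjusted p = 1) and that of Fstl3 was 1.21 (adjusted p = 1). The mt vehicle libraries that enter the Inhba difference were at 40.7 and 15.9 CPM. For Acvr1b the difference was -0.13 ± 0.26, with a 95% interval of -0.69 to 0.42, and -0.18 without those 4 libraries. For TGFB1 alone, for TGFB2 alone and for BMP2, 0 of the 8 genes were called by edgeR or DESeq2, with 1, 2 and 0 at an unadjusted p below 0.05. Of all genes, 0.0119%, 0.0475% and 0% were called in those 3 comparisons.

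TGFB2 was set against TGFB1 at the same dose within each line. No gene of the 8 was called by edgeR or DESeq2 in either line (0 of 8), with 1 in mt cells and 0 in wt cells at an unadjusted p below 0.05, and 0% of all genes were called. The 1 gene was Inha in mt cells, at 0.842 and 0.999 CPM with TGFB2 against 2.50 and 1.39 CPM with TGFB1, a log2 fold change of -1.03 ± 0.45 (adjusted p = 1). With the 4 mt replicate 1 libraries left out, it was -0.48 (adjusted p = 1). In wt cells the same difference was -0.22 ± 0.42. For Fstl3 the 95% interval of the difference was -0.67 to 0.75 in mt cells and -0.85 to 0.61 in wt cells. For Inhba it was -0.90 to 0.70 in mt cells and -0.86 to 0.74 in wt cells, and for Acvr1b -0.74 to 0.21 in mt cells and -0.41 to 0.49 in wt cells. The values allow differences of this size between the ligands.

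The balance between subunits and antagonists was read as a ratio of reads within a library, which needs no scaling between libraries. These ratios are descriptions with no test, and do not allow for gene length. Inha had 0.013 to 0.0322 reads per Inhba read in mt cells with a TGF-beta, against 0.126 and 0.241 in mt cells with vehicle. In wt cells it had 0.0478 to 0.0574 reads per Inhba read with a TGF-beta, against 1.18 and 1.27 with vehicle. Inhba outnumbered Inha in every library but the wt vehicle pair. Per Fst read there were 1.58 to 2.86 Inhba reads in mt cells with a TGF-beta, against 1.44 and 0.63 with vehicle, and 0.518 to 1.30 in wt cells with a TGF-beta, against 0.188 and 0.178 with vehicle. Per Fst read there were 0.923 to 1.60 Fstl3 reads in mt cells with a TGF-beta, against 0.146 and 0.130 with vehicle, and 0.124 to 0.226 in wt cells with a TGF-beta, against 0.0678 and 0.0494 with vehicle. No range with a TGF-beta overlapped that with vehicle of the same line.

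**Figure D4:**
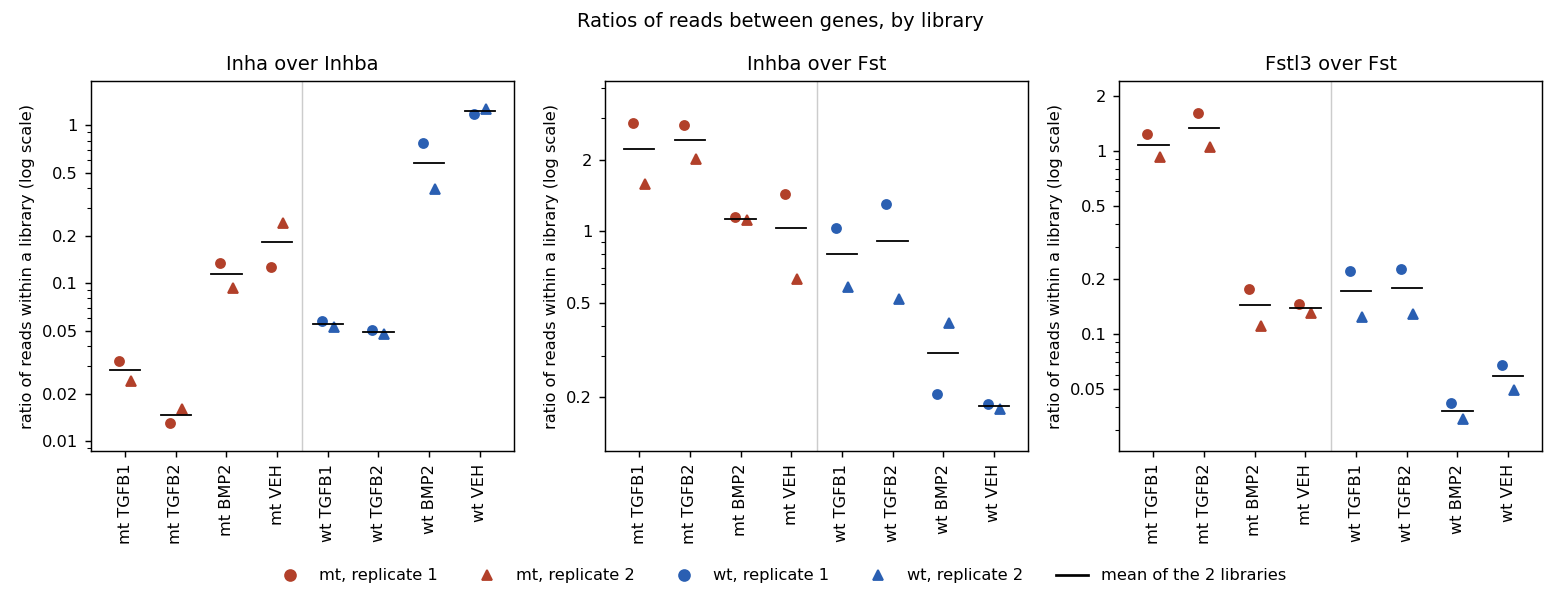
Ratio of reads of Inha over Inhba, Inhba over Fst and Fstl3 over Fst in each library, on log axes that differ between panels. Circles are replicate 1 and triangles replicate 2, with mt cells in red left of wt cells in blue, and bars are group means. Fstl3 reaches 0.923 to 1.60 times the Fst reads in mt cells with a TGF-beta and stays at 0.226 or below in all other libraries.

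Levels were compared between genes per kilobase of exons, with lengths from GENCODE M21, since the gene models of the counting are not given. In mt cells with TGFB1 the order of mean CPM per kilobase was Fstl3 at 17.3, Fst at 11.3, Inhba at 10.6, Inhbb at 4.27, Acvr2a at 1.62, Acvr1b at 1.36, Inha at 1.32 and Acvr2b at 0.128. In wt cells with vehicle it was Fst at 10.6, Acvr1b at 8.01, Inha at 4.56, Inhbb at 2.35, Fstl3 at 0.909, Inhba at 0.861, Acvr2a at 0.848 and Acvr2b at 0.403. Fst thus had the highest level per length of the 8 genes in wt cells with vehicle, and Fstl3 in mt cells with TGFB1. Of the type II receptors, Acvr2a was above Acvr2b in all 8 groups.

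**Figure D5:**
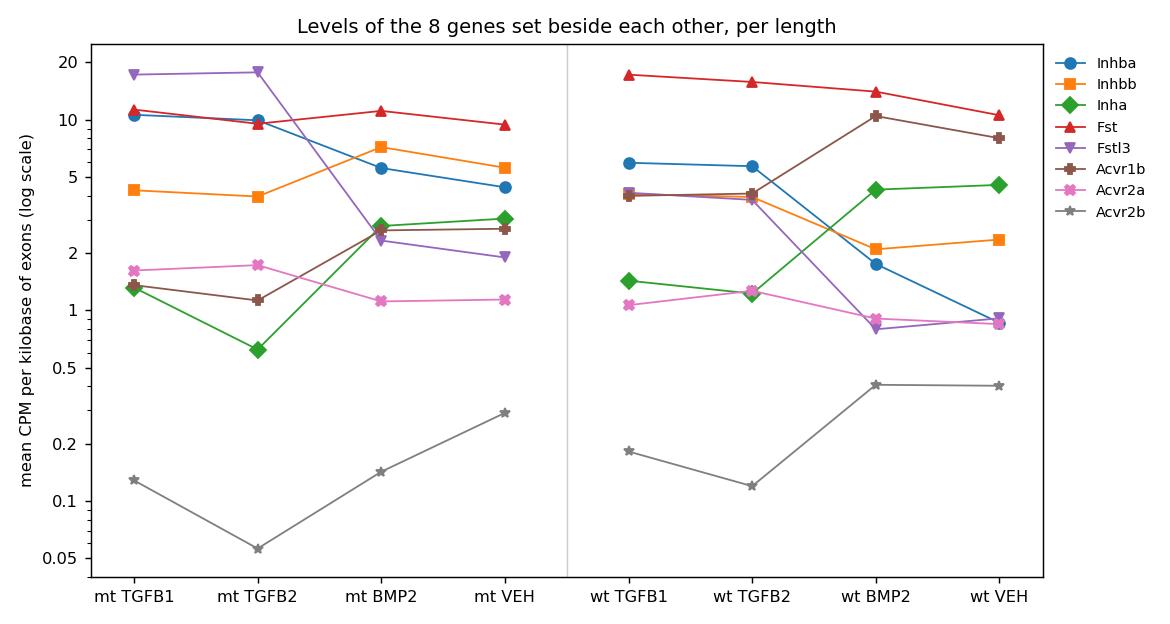
Mean CPM per kilobase of exons of the 8 genes in each group, on a log axis, with mt groups left of wt groups and lines joining the groups of a line. In mt cells Fstl3 is at 17.3 with TGFB1 and 1.90 with vehicle, and Acvr2b lies below the other 7 genes in every group.

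Of 45 other genes of activin, nodal and GDF signalling, 33 were tested. In mt cells 6 rose and 2 fell with TGFB1, 7 rose and 4 fell with TGFB2, and 1 rose and 0 fell with BMP2. In wt cells 7 rose and 3 fell with TGFB1, 7 rose and 4 fell with TGFB2, and 0 changed with BMP2. The shares of all genes called with TGFB1 and TGFB2, in either direction, were 16.4% and 17.4% in mt cells and 19% and 20.1% in wt cells. Leaving out 1 library gave 4 to 7 calls with TGFB1 and 5 to 9 with TGFB2 in mt cells, and 5 to 8 with either ligand in wt cells. With the 4 mt replicate 1 libraries left out, the mt calls were 4 with TGFB1, 5 with TGFB2 and 0 with BMP2. Under the replicate block the list had 18 calls with TGFB1 and 19 with TGFB2 in mt cells, and 20 with TGFB1 and 18 with TGFB2 in wt cells, while 32.5%, 33.5%, 33.4% and 34.7% of all genes were called in those 4 comparisons. Among the ligands of the list, Nodal averaged 0.073 CPM over the groups, Inhbc and Inhbe under 0.01 CPM, and Mstn had no reads. Lefty1 and Lefty2, antagonists of nodal with near-identical sequence that reads may not tell apart, were higher in mt cells over the 4 treatments, by 0.75 ± 0.15 (adjusted p = 0.00555) and 1.13 ± 0.20 (adjusted p = 0.00195), and by 0.84 and 1.29 without the 4 mt replicate 1 libraries (adjusted p = 0.0214 and 0.0078). Acvr1c, the other activin-type type I receptor (ALK7), averaged 0.060 CPM. Bambi, a pseudoreceptor that dampens signalling, fell with TGFB1 by 1.38 ± 0.26 in mt cells (adjusted p = 0.00397) and by 2.00 ± 0.26 in wt cells (adjusted p = 0.000412), and by 1.74 in mt cells without the replicate 1 libraries (adjusted p = 0.0106). Fstl1, a secreted relative with a follistatin domain, rose with TGFB1 in wt cells by 1.38 ± 0.26 (adjusted p = 0.00291). Its mean in mt cells was 1739 CPM with TGFB1 and 1744 CPM with TGFB2, against 1262 CPM with vehicle.

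Within the cell, the SMAD corepressor gene Skil rose with TGFB1 by 1.24 ± 0.23 in mt cells (adjusted p = 0.00384) and by 1.74 ± 0.24 in wt cells (adjusted p = 0.000487), and the corepressor gene Tgif1 by 1.44 ± 0.19 in mt cells (adjusted p = 0.000525) and 1.12 ± 0.19 in wt cells (adjusted p = 0.00184). Without the 4 mt replicate 1 libraries the mt value was 1.25 for Skil, which no longer passed (adjusted p = 0.0616), and 1.41 for Tgif1 (adjusted p = 0.0253). Smurf2, a ubiquitin ligase that acts on SMADs and receptors, rose with TGFB2 in wt cells by 1.02 ± 0.19 (adjusted p = 0.00241). Its mean in mt cells was 54.6 CPM with TGFB1 and 64.0 CPM with TGFB2, against 34.3 CPM with vehicle. Dab2, an adaptor of receptor uptake, fell with both TGF-beta ligands in mt cells. Its log2 fold change was -1.49 ± 0.26 with TGFB1 (adjusted p = 0.00255) and -1.53 ± 0.26 with TGFB2 (adjusted p = 0.00204). Without the 4 mt replicate 1 libraries these were -1.75 and -1.82. In wt cells Dab2 averaged 77.7 CPM with TGFB1 and 80.3 CPM with TGFB2, against 158 CPM with vehicle. Smad7, an inhibitory SMAD, was the 1 gene of the list that changed with BMP2 in mt cells (1.55 ± 0.22, adjusted p = 0.0341), a call that was lost whichever of its 4 libraries was left out. Between the lines with vehicle, 0 of the list were higher and 1 lower in mt cells, which was Tgfbr3 itself, against 3.58% of all genes. Over the 4 treatments 4 were higher and 4 lower in mt cells, against 9.83% of all genes higher and 8.17% lower. Tgfbr3, the targeted gene, was again among the lower ones (-2.25 ± 0.16, adjusted p = 2.98e-06).

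The 8 group means of log2 CPM were compared by Pearson correlation, as a description over 8 groups that share libraries. Inhba and Fstl3 correlated at 0.89, Fstl3 and Acvr2a at 0.96, and Inha and Acvr2b at 0.92, whereas Fstl3 and Acvr1b correlated at -0.90. Among 12371 genes that averaged 5 CPM or more, those closest to Inhba were Gna15 (0.997), P2rx7 (0.996) and Nfatc1 (0.993). Closest to Fstl3 were FLRG and Prssl1, which share its locus, and Gnal (0.997). Closest to Acvr1b were Ttyh3 (0.988), Idua (0.986) and Mrpl42 (0.986), and closest to Acvr2a were Tbc1d12 (0.993), DQ543801chr9+ (0.990) and Vmn2r-ps14 (0.989). Closest to Inha were Mier2 (0.994), 2310005N01Rik (0.984) and Pcdhac2 (0.983), and closest to Acvr2b were Sema4b (0.976), Zfp523 (0.967) and ACRP (0.966). Closest to Fst were Ulk3 (0.980), Bud31 (0.970) and Usp35 (0.969), and closest to Inhbb were P4hb (0.959), Serpinf1 (0.946) and Anxa6 (0.938). With 8 points a high correlation is common: the 100th closest gene still reached 0.967 for Inhba and 0.973 for Fstl3, against 0.832 for Inhbb.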

How the data were processed

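Each replicate number has a table of its own, in which the authors deposited raw read counts per gene and rpm (reads per 1e+06 reads of the listed genes). The rpm matched the counts over their total to within 2.9e-11. Per the submitters' processing notes, alignment was to mm9 with TopHat or TopHat2. For the counting program, the gene models and the use of strand, the sources used here give nothing. Entries without a gene name (2) were left out.

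The count test was that of edgeR 4.0.16 (R 4.3.3), a robust quasi-likelihood fit of 8 group means over all 16 libraries after filterByExpr and TMM scaling, with Benjamini-Hochberg adjustment over 16835 genes at a threshold of 0.05. The SE was taken as |log2 fold change| divided by √F. Levels are TMM-scaled CPM. Totals of 6410320 to 31813921 reads per library leave genes of few reads, such as Acvr2b, with a larger counting error.

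The genes and lists were chosen with earlier results of these data known. Beside these 8 genes and Tgfbr3, the rule for naming takes up to 4 called genes of the pathway list with the smallest p in each comparison, of which a part is given, and the 3 genes closest in pattern to each gene. Other genes of the list named by their abundance, the entries that overlap Inhba, Fstl3 and Acvr2a, and the sum of cardiomyocyte markers without Tnnt2 were chosen after their values were seen.

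The replicate numbers allow the samples to be paired, but the titles give only the number and not what same-numbered libraries share. Deviations from the group means correlated between same-numbered libraries at 0.16 to 0.76 (median 0.51), which is above 0.1 for 28 of the 28 group pairs. The main test has no replicate term. Alternatives were the replicate number as a block, RLE size factors, no filter on low counts, DESeq2 1.42.0, a fit of only the groups compared, leaving out each library in turn, and leaving out the 4 mt replicate 1 libraries, which for genes other than the 8 was chosen after seeing the data. Promoter windows came from RefSeq (GRCm38.p6) and exon lengths from GENCODE M21. No coordinates were converted between builds.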

Additional observations from a re-analysis of the deposited data

How the results depend on the processing

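Of 1335 values of the 8 genes recomputed under the alternatives, 1264 stayed on their side of the threshold, 51 fell short of it and 20 newly passed it. The 1264 include 91 values that were uncalled both times and changed sign, while 0 called values reversed. With RLE size factors 112 of 112 values stayed on their side, and with DESeq2 110 of 112. With the compared groups alone, 1 gene was called with TGFB1 in mt cells, 2 with TGFB2 in mt cells and 0 between the lines with vehicle, where calls over all genes were 297, 1064 and 28, against 2763, 2933 and 602 in the fit over all libraries. The mt calls lost there were those of Inhba, Acvr1b and Acvr2b. Inhba was at 1.29 with TGFB1 and 1.19 with TGFB2 (adjusted p = 0.229 and 0.17). Acvr1b was at -0.97 and -1.24 (adjusted p = 0.211 and 0.0754), and Acvr2b at -2.22 with TGFB2 (adjusted p = 0.0826). In that fit of the compared groups 0 of the 33 pathway genes tested were called with TGFB1, 4 of 32 with TGFB2 and 0 of 33 with BMP2 in mt cells. Without the 4 mt replicate 1 libraries 2 were called with TGFB2 in mt cells and 0 between the lines with vehicle, against 1605 and 133 of all genes. With the replicate block 4 were called between the lines with vehicle, 8 over the 4 treatments and 1 for the mean TGF-beta response; the block changed no call of the 8 genes other than those given beside the results. Leaving out 1 library gave 1 to 3 calls for TGFB1 and 3 to 4 for TGFB2 in mt cells, 3 to 4 for TGFB1 and 3 to 4 for TGFB2 in wt cells, 1 to 2 between the lines with vehicle, 3 to 5 over the 4 treatments and 0 to 1 for the mean TGF-beta response, where a lone library is assumed to vary like the other groups. Leaving out libraries of a comparison removes degrees of freedom by construction; no other cause was tested. Genes with libraries of few reads, such as Acvr2b (2 to 37 reads), Inha (11 to 179 reads) and Fstl3 (14 to 930 reads), have a larger counting error there.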
